A study of Mus musculus with 6 samples.

Results

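The genes described here are 10 that set the fate of pyruvate at the entry to the mitochondrial citric acid cycle: Pdha1, Pdhb and Dlat of the pyruvate dehydrogenase complex, its kinases Pdk1, Pdk2, Pdk3 and Pdk4, its phosphatases Pdp1 and Pdp2, and Pcx, the gene of pyruvate carboxylase. They were chosen by name, and all 10 were found among the 32285 genes of the deposited table. Transcripts were measured by bulk RNA sequencing of radial glial progenitors, the dividing stem cells of the early cortex, from the neocortex of wild-type (WT) mouse embryos at stage E10.5. The GSK group held 3 libraries of dissociated cells cultured for about 24 h with GSK2837808A, an inhibitor of lactate dehydrogenase, which turns pyruvate into lactate. The DMSO group held 3 libraries of the same kind of culture given an equal volume of the solvent. The labels state 100 mM of inhibitor, a concentration that was not verified. Each library was made with the Smart-seq2 protocol from about 1000 sorted cells that carried CD133 and excluded the dye DAPI. The labels do not state whether replicates were separate cultures or embryos, and each p-value therefore covers the spread among these libraries alone, which may be purely technical.

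The pyruvate dehydrogenase complex turns pyruvate into acetyl-CoA inside the mitochondrion and so commits glucose carbon to oxidation. It is switched off when a kinase of the PDK family phosphorylates its E1 alpha subunit and switched on again when a phosphatase of the PDP family removes the phosphate. Pyruvate carboxylase instead adds a carbon to pyruvate to make oxaloacetate, which refills the citric acid cycle. Transcript levels report neither phosphorylation nor enzyme activity.

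In GSK libraries, transcripts of the kinases Pdk1 and Pdk2 were each about 1.66-fold higher, those of the phosphatase Pdp2 were 1.46-fold higher, and those of Pcx fell to 0.597 of the DMSO level. The catalytic subunits Pdha1, Pdhb and Dlat, the kinase Pdk3 and the phosphatase Pdp1 did not pass the test. Pdk4 was nearly absent and was not tested. A gene passed when its Benjamini-Hochberg adjusted p, over all 15073 genes with a mean of at least 10 normalised reads, was below 0.05 in limma on log2(value + 1). Of the 10 genes, 9 met that minimum, and 3 of them rose and 1 fell. Over all tested genes 36.1% passed, 17.0% upward and 19.1% downward, so 4 of 9 is near the background and is no result about the set as a whole. The median log2 fold change was 0.23 over the 9 genes and 0.01 over all tested genes.

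The promoters of the 4 genes that passed are shown because these are the members whose transcripts moved. Each runs from 250 bases before to 50 bases after the start of transcription, in RefSeq's annotation of GRCm38.p6, and is read in the direction of the gene. Pdk1 lies on the plus strand (chr2:71872974-71873273), as do Pdp2 (chr8:104591222-104591521) and Pcx (chr19:4510222-4510521), and Pdk2 on the minus strand (chr11:95041322-95041621). Capitals mark, on either strand, the CCAAT box and the letters ACGTG, a form of the core of the hypoxia response element. The form GCGTG was not searched and is not marked, although the Pdk1 window shown holds it. ACGTG lies within CACGTG, the E-box bound by MYC and its relatives.
Pdk1: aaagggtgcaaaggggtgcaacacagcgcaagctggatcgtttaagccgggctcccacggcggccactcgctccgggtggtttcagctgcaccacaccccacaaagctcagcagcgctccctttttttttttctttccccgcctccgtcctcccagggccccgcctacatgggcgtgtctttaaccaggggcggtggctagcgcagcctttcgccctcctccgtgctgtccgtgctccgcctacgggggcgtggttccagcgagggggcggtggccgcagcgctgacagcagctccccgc
Pdk2: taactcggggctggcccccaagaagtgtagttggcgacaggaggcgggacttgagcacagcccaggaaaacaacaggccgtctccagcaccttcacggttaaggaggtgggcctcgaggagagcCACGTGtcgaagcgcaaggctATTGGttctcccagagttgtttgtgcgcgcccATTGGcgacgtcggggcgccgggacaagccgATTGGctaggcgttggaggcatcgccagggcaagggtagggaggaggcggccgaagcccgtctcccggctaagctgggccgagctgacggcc
Pdp2: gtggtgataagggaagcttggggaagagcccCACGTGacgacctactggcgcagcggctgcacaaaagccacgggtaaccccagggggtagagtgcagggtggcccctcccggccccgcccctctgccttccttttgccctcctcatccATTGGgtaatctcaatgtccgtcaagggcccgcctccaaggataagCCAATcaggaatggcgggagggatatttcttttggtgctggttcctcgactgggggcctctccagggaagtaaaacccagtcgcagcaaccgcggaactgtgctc
Pcx: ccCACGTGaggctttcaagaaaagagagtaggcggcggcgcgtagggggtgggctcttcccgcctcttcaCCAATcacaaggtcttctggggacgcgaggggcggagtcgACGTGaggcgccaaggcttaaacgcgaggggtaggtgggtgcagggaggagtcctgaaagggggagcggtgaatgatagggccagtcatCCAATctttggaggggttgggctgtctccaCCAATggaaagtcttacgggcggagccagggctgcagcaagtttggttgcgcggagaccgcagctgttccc

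RefSeq windows were available for 9 of the 10 genes, 12 windows in all, with 2 each for Pdk1, Pdk2 and Pcx, of which the first listed is shown. The E-box CACGTG was found in the shown windows of Pdk2, Pdp2 and Pcx, starting 126, 219 and 248 bases before the start of transcription, and in no other window of the 9 genes. Of all 32851 promoter windows, 7.15% hold it. The CCAAT box occurred 3 times in the shown window of Pdk2, 3 times in that of Pcx and 2 times in that of Pdp2. It was not particular to the genes that passed, with 3 in the window of Pdhb and 1 each in those of Pdk3 and Pdk4. At least 1 was present in 7 of the 12 windows and in 37.4% of all windows. Neither window of Pdk1 held either motif. The second window of Pdk2 also held neither, and that of Pcx held 1 CCAAT box, starting at base 36 after the start of transcription. In Pdk1, 66% of the bases of the shown window and 40.3% of those of the second were G or C. The median over all windows was 52.7%, and the first listed windows of the other genes held 60.7% to 68%. ACGTG was present in 5 of the 12 windows and in 19.6% of all windows. The other letters searched on both strands were TCAAGGTCA (oestrogen-related receptors, in 0.423% of all windows), GTAAACA (forkhead factors, 3.65%), TGATGNAA (amino acid response, 3.97%) and TGACGTCA (cyclic AMP response, 1.79%), none of which was in the 12 windows. The E-box letters were thus held by Pdk2 and Pdp2, which rose, and by Pcx, which fell. A match is a description of these windows only.

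The libraries held 7187089 to 10224348 reads, and the groups overlapped in depth. Gm42418, AY036118 and Gm26917, annotations that lie over ribosomal RNA, together held 23.8%, 26.1% and 23.2% of all normalised reads in GSK libraries and 20.2%, 21.6% and 21.5% in DMSO libraries. The groups did not overlap in this share, and its part in the results was not tested. Markers of the sorted cells moved with the treatment. Of 12 radial glial markers 9 were lower in GSK libraries, with summed levels of 12444 to 15369 normalised reads in GSK and 22923 to 23699 in DMSO libraries. All 6 markers of cycling cells were lower, with sums of 4650 to 5265 in GSK and 14774 to 15801 in DMSO libraries. Of 8 intermediate progenitor markers 6 were higher, with sums of 2517 to 3211 in GSK and 1160 to 1852 in DMSO libraries. Of 8 neuron markers 5 were higher, with sums of 21856 to 26417 in GSK and 7186 to 14362 in DMSO libraries. Red blood cell markers had sums of 183780 to 273997 in GSK and 2391 to 20598 in DMSO libraries, with 7 of the 8 tested higher. Microglia and macrophage markers had sums of 604 to 1319 in GSK and 98.8 to 395 in DMSO libraries, with 6 of 10 higher. Mesenchyme and pericyte markers had sums of 16170 to 25390 in GSK and 26497 to 33420 in DMSO libraries, and 2 of the 6 tested were lower. As alternative tests, edgeR called 2 of these markers lower and DESeq2 called 0. The endothelial and muscle sums overlapped between the groups, and no marker in these lists was at 0 in every library. The part of these cell types in the results was not tested, and in bulk samples fewer cells of a type and less RNA per cell cannot be told apart. Within the GSK group, replicates 1 and 3 were the pair that differed most (chi-square per degree of freedom 14.2, against 4.45 to 9.71 for the other pairs within a group).

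None of the 3 catalytic core members passed the test. Pdha1, the gene of the E1 alpha subunit that carries the regulatory phosphates (chromosome X, 160122209 to 160138413), had 1132, 1076 and 1014 normalised reads in GSK libraries and 1147, 1153 and 1104 in DMSO libraries. The groups overlapped, with GSK replicate 3 the lowest of the 6 libraries. Its log2 fold change was -0.08 with a 95% interval of -0.33 to 0.17 (limma adjusted p = 0.641). An exon of Pdha1 overlaps Map3k15 on the opposite strand, and without strand-marked libraries the reads of the shared stretch cannot be told apart. Map3k15 averaged 407 ± 33.3 normalised reads in GSK and 453 ± 27.5 in DMSO libraries (SD, n = 3 each) and did not pass the test (adjusted p = 0.377). The related gene Pdha2, which is expressed in the testis, was at 0 in 5 of the 6 libraries and had 1 read in the other.

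Pdhb, the gene of the E1 beta subunit that completes the decarboxylating enzyme (chromosome 14, 8165996 to 8173025), had 1063, 1379 and 1460 normalised reads in GSK libraries and 1145, 1069 and 1078 in DMSO libraries. GSK replicate 1 lay below all 3 DMSO libraries, and the other GSK libraries lay above them. The log2 fold change was 0.23, with an interval of -0.05 to 0.52 (limma adjusted p = 0.193). Without GSK replicate 1 it was 0.37 and passed (adjusted p = 0.00502), and when any other library was left out the adjusted p was 0.245 to 0.469. Dlat, the gene of the E2 subunit that moves the acetyl group to coenzyme A (chromosome 9, 50634633 to 50659780), had 512, 528 and 568 normalised reads in GSK libraries and 545, 533 and 499 in DMSO libraries. These values interleaved, and the log2 fold change was 0.03, with an interval of -0.23 to 0.29 (adjusted p = 0.886).

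**Figure D1:**
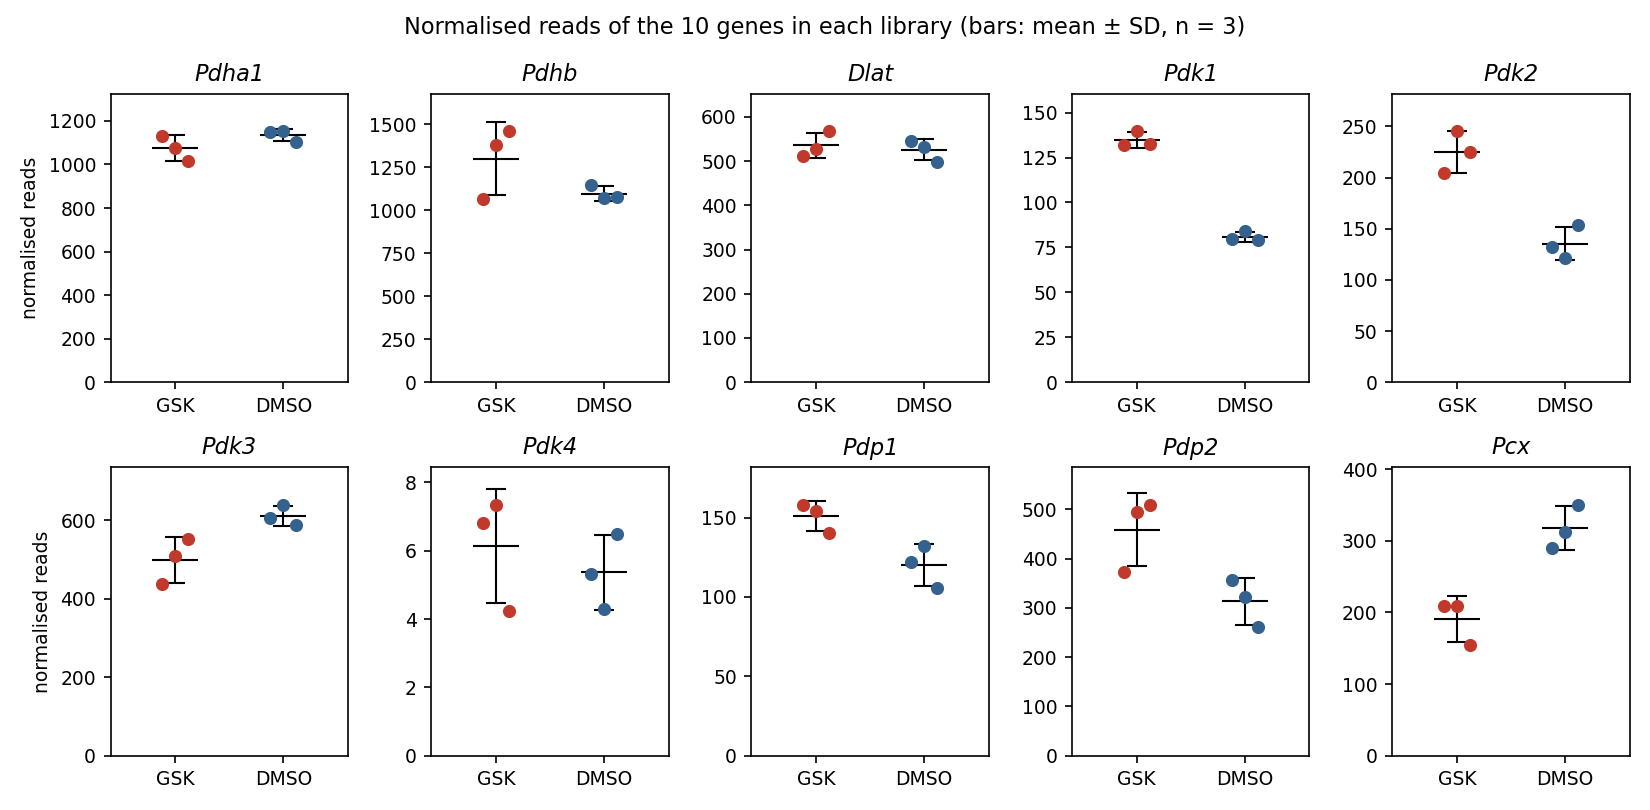
Normalised reads (vertical axes, each from 0) of the 10 genes in the 3 GSK libraries (left, red) and the 3 DMSO libraries (right, blue); points are libraries and bars are mean ± SD. Pdk1, Pdk2, Pdp1 and Pdp2 have every GSK library above every DMSO library, Pdk3 and Pcx have every GSK library below, and Pdha1, Pdhb, Dlat and Pdk4 overlap.

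Among the kinases, which switch the complex off, Pdk1 and Pdk2 rose and Pdk3 did not pass the test. Pdk1, known as a target of hypoxia-inducible factor (chromosome 2, 71873224 to 71903858), had 132, 139.7 and 133 normalised reads in GSK libraries and 79.7, 84.2 and 79.0 in DMSO libraries. The libraries of each group lay close together and the groups were well apart, and the log2 fold change was 0.73 ± 0.17 (standard error; limma adjusted p = 0.00243). The counts behind it were 116, 152 and 125 reads in GSK and 75, 98 and 85 reads in DMSO libraries. Pdk2, the kinase found in most tissues (chromosome 11, 95026258 to 95041354), had 205, 245 and 225 normalised reads in GSK libraries and 132, 121 and 153 in DMSO libraries. Every GSK library was above every DMSO library. Its log2 fold change was 0.73 ± 0.16 (standard error; limma adjusted p = 0.00125). Changes larger than that of Pdk1, in either direction, were seen in 22.7% of all tested genes.

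Pdk3 is a kinase gene on chromosome X (93764607 to 93832201). It had 437, 510 and 552 normalised reads in GSK libraries and 605, 640.1 and 588 in DMSO libraries. The GSK libraries were all below the DMSO libraries, the highest GSK value lying close to the lowest DMSO value. The log2 fold change was -0.30, with an interval of -0.57 to -0.02, and did not pass after adjustment over all genes (limma adjusted p = 0.0845). It passed with equal library totals (adjusted p = 0.0220) and without GSK replicate 3 (0.0431); over all alternatives the adjusted p ran from 0.0220 to 0.248.

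Pdk4, known as the kinase induced by fasting and fatty acids (chromosome 6, 5483351 to 5496309), was the rarest of the 10. It had 6, 8 and 4 reads in GSK libraries and 5, 5 and 7 in DMSO libraries, or 4.24 to 7.35 normalised reads in GSK and 4.30 to 6.51 in DMSO. Its mean was below the minimum of 10, the groups overlapped, and no difference was detectable at this depth.

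Of the phosphatases, which switch the complex back on, Pdp2 rose and Pdp1 did not pass the test, although every GSK library exceeded every DMSO library for both. Pdp2 encodes the catalytic subunit that does not need calcium (chromosome 8, 104591451 to 104599026). It had 373, 493 and 509 normalised reads in GSK libraries and 356, 321 and 262 in DMSO libraries. GSK replicate 1 was only just above DMSO replicate 1, and the other libraries were further apart. The log2 fold change was 0.55 ± 0.15 (standard error; limma adjusted p = 0.00889). It did not pass without DMSO replicate 3 (0.43, adjusted p = 0.0639) or without GSK replicate 2 (0.49, adjusted p = 0.0541), and its adjusted p over all alternatives was 0.000214 to 0.0639.

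Pdp1 encodes the calcium-stimulated catalytic subunit (chromosome 4, 11958184 to 11966452). It had 158, 154 and 140.1 normalised reads in GSK libraries and 122, 132 and 106 in DMSO libraries. The groups did not overlap, the lowest GSK library standing just above the highest DMSO library. The log2 fold change was 0.33, with an interval of -0.02 to 0.68, and did not pass (limma adjusted p = 0.130). Groups that do not overlap were common in these data, at 47.2% of all tested genes. Of these 9 genes 4 lay wholly above, against 22.8% of all tested genes, and 2 wholly below, against 24.4%.

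Pcx fell. Its product, pyruvate carboxylase, carries a biotin and is the main anaplerotic enzyme of glial cells in the brain; the gene spans 4510472 to 4621752 on chromosome 19. It had 209, 209 and 154 normalised reads in GSK libraries and 289.99, 313 and 350.3 in DMSO libraries. All GSK libraries were below all DMSO libraries, with GSK replicate 3 the lowest. The log2 fold change was -0.74 ± 0.16 (standard error; limma adjusted p = 0.000984). Lrfn4 lies on the opposite strand within the span of Pcx, but their exons do not overlap.

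**Figure D2:**
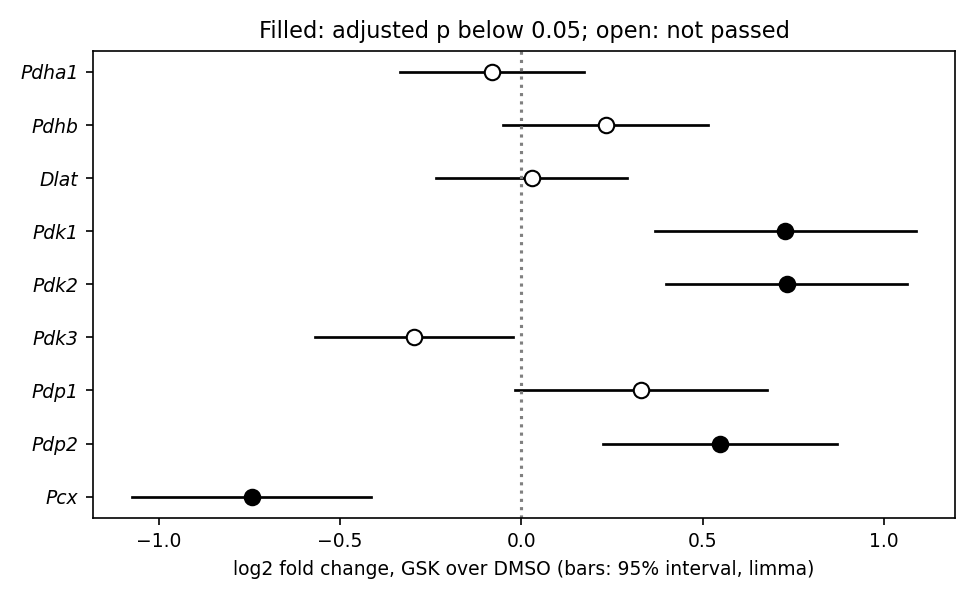
Log2 fold change of GSK over DMSO (horizontal axis) for the 9 tested genes, with 95% intervals from limma; filled points passed at an adjusted p below 0.05. Pdk1 and Pdk2 lie at 0.73, Pdp2 at 0.55 and Pcx at -0.74, while the intervals of Pdha1, Pdhb, Dlat and Pdp1 include 0.

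Levels of different genes were compared as normalised reads per kb of the union of annotated exons. In GSK libraries the order from high to low was Pdhb, Pdha1, Pdk3, Dlat, Pdp2, Pdk2, Pcx, Pdp1, Pdk1 and Pdk4. In DMSO libraries it was Pdha1, Pdhb, Pdk3, Dlat, Pcx, Pdp2, Pdk2, Pdp1, Pdk1 and Pdk4. Pdha1 averaged 288 ± 15.8 reads per kb in GSK and 304 ± 7.17 in DMSO libraries (SD, n = 3 each), and its range overlapped that of Pdhb in both groups. Pcx averaged 40.1 ± 6.70 reads per kb in GSK and 66.8 ± 6.41 in DMSO libraries, which placed it below Pdp2 and Pdk2 in GSK libraries and above them in DMSO libraries. The other neighbours whose ranges overlapped were Pdp2 with Pdk2 and Pcx with Pdp1 in GSK libraries, and Pcx with Pdp2 and Pdp2 with Pdk2 in DMSO libraries. Pdk1, with 17.3 ± 0.547 reads per kb in GSK and 10.4 ± 0.364 in DMSO libraries, stood apart from its neighbours in both groups. The order depends on the length used. With the median length of each gene's coding transcripts, chosen after seeing the data, Pdhb came first in both groups, at 859.7 ± 139 reads per kb in GSK and 725 ± 27.5 in DMSO libraries. Pcx then stood beside Pdp2 in GSK libraries (82.2 ± 13.7 against 80.6 ± 13.1) and beside Dlat in DMSO libraries (137 ± 13.1 against 130.2 ± 5.89).

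**Figure D3:**
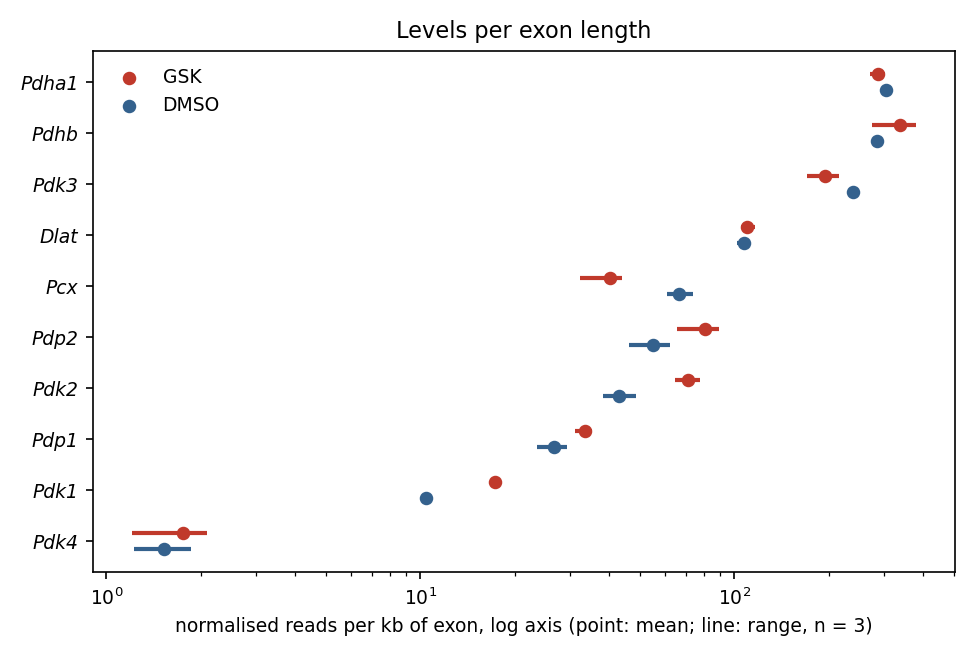
Normalised reads per kb of exon (horizontal log axis) of the 10 genes, GSK in red above DMSO in blue; points are means and lines run from the lowest to the highest of 3 libraries. The genes of the catalytic core and Pdk3 are at the top, Pdk4 lies between 1.21 and 2.09 reads per kb, and Pcx crosses below Pdp2 and Pdk2 in GSK libraries.

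Pdk3 made up most of the kinase transcript in both groups, and a smaller part of it in GSK libraries. Per length, it held 67.1%, 67.1% and 70.7% of the summed level of the 4 kinases in GSK libraries and 81.6%, 83.2% and 79.2% in DMSO libraries. Pdk2 held 25.5%, 26.1% and 23.3% in GSK libraries and 14.4%, 12.8% and 16.7% in DMSO libraries. The Pdk1 share was 6.11% ± 0.542 in GSK and 3.55% ± 0.0537 in DMSO libraries (SD, n = 3 each). None of these 3 shares overlapped between the groups, whereas the share of Pdk4 was below 1% in all 6 libraries. The shares are parts of the same sum, so they are not separate observations.

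The summed kinase level differed by less than the spread among GSK libraries, at 285 ± 27.1 reads per kb in GSK and 293 ± 5.95 in DMSO libraries. Without length correction the sum was 866 ± 73.7 normalised reads in GSK and 833 ± 14.7 in DMSO libraries. The direction of this difference thus depends on the length used. The summed phosphatase level was 114 ± 11.6 reads per kb in GSK and 81.7 ± 10.7 in DMSO libraries. The ratio of the kinase sum to the phosphatase sum was 2.53, 2.45 and 2.53 in GSK libraries and 3.23, 3.50 and 4.17 in DMSO libraries. The groups did not overlap in this ratio, and the DMSO libraries were the more spread. These shares and ratios are descriptions over genes chosen by name and were not tested. The Pdk2 to Pdk1 ratio was 4.10 ± 0.259 in GSK and 4.13 ± 0.620 in DMSO libraries, a difference within the spread.

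**Figure D4:**
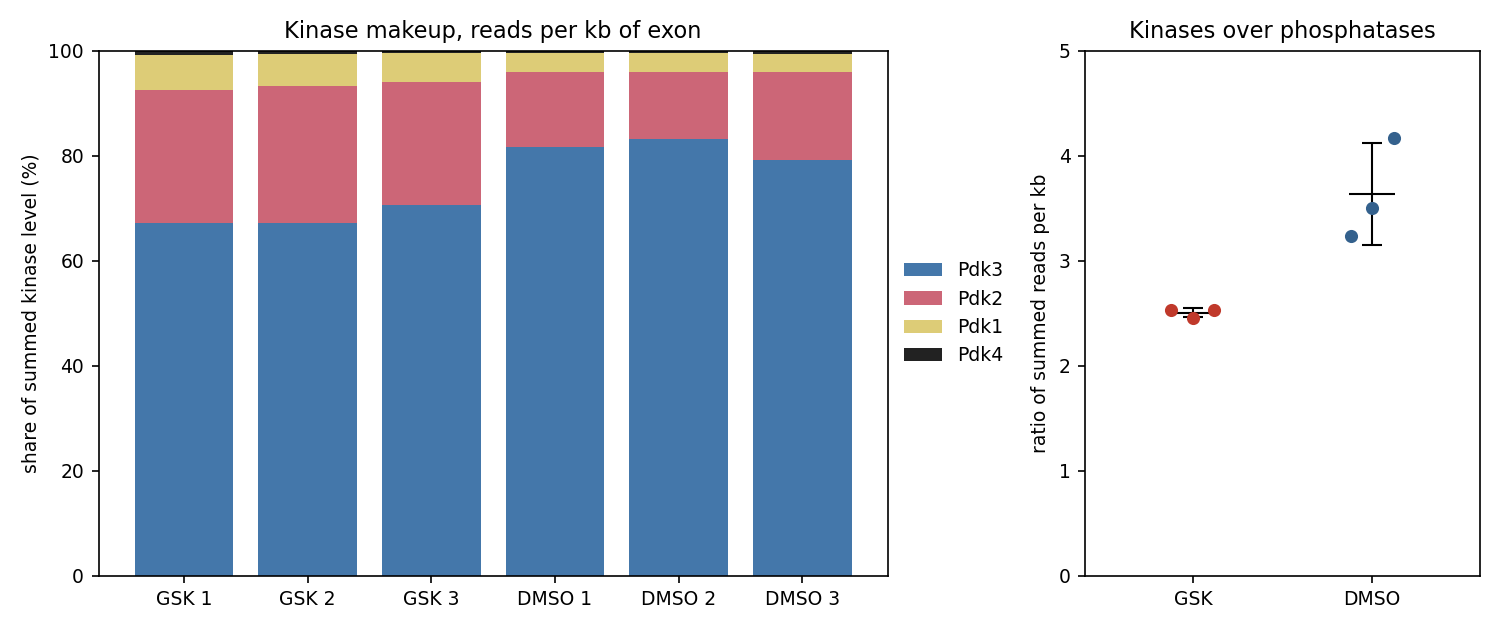
Left, share of the summed kinase level (percent of reads per kb of exon) held by each kinase in every library; right, ratio of the summed kinase to the summed phosphatase level per library with mean ± SD. Pdk3 holds 67.1% to 70.7% in GSK and 79.2% to 83.2% in DMSO libraries, and the ratio is 2.45 to 2.53 in GSK and 3.23 to 4.17 in DMSO libraries.

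Relative to Pdha1, the level of Pcx per length was 0.145, 0.152 and 0.119 in GSK libraries and 0.199, 0.213 and 0.249 in DMSO libraries, with no overlap. The ratio of the kinase sum to Pdha1 was 0.997 ± 0.145 in GSK and 0.966 ± 0.0199 in DMSO libraries and overlapped. The Pdhb to Pdha1 ratio was 0.908, 1.24 and 1.39 in GSK libraries and 0.965, 0.896 and 0.944 in DMSO libraries, so that GSK replicate 1 fell among the DMSO libraries.

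For each gene that passed, the 3 protein-coding genes of most similar pattern were found among 9068 with a mean of at least 100, by the root mean square difference of centred log2 values over the 6 libraries. For Pdk1 they were Yipf1 (0.039 log2 units), Vasn and Afap1, and for Pdk2 they were Tgfbi (0.053), Bmf and Fbxo9. For Pdp2 they were Mindy3 (0.023), Cntd1 and Ppp3ca, and for Pcx they were Lig3 (0.060), Lnx2 and Lama5. With 6 libraries in 2 groups, this likeness rests mostly on the difference between the groups.

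The remaining genes of the complex were read from lists that include the members. Of the 5 tested core genes, Dld rose and the other 4 did not pass. Dld encodes the E3 subunit, which the complex shares with other 2-oxo acid dehydrogenases. It had 1076, 1312 and 1350 normalised reads in GSK libraries and 993, 898 and 807 in DMSO libraries. The groups were separate, and the log2 fold change was 0.47 (limma adjusted p = 0.00938). The call was lost without DMSO replicate 3 (0.39, adjusted p = 0.0595) and without GSK replicate 2 (0.43, adjusted p = 0.0603). Pdhx, which anchors E3 to the core, had a log2 fold change of 0.11 (adjusted p = 0.578). Pdpr, the regulatory subunit of the phosphatase, had a log2 fold change of -0.16 (adjusted p = 0.462), which was -0.30 without GSK replicate 1 and -0.03 without GSK replicate 3.

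Of the genes that make or use pyruvate around the switch, 1 of 10 was higher and 3 were lower. Over all tested genes 17.0% passed upward and 19.1% downward. The counts in this list and in those below were not tested as sets and are no result about a list as a whole. Mpc1, part of the carrier that brings pyruvate into the mitochondrion, had 317, 321 and 447 normalised reads in GSK libraries and 241, 211 and 193 in DMSO libraries, a log2 fold change of 0.73 (limma adjusted p = 0.00119). Pkm, which encodes the pyruvate kinase that makes pyruvate, and Ldha, of lactate dehydrogenase, had log2 fold changes of -0.88 and -0.78 (adjusted p = 9.63e-05 and 0.000424). Me2, the gene of a mitochondrial malic enzyme, fell by 0.36 on the log2 scale (adjusted p = 0.0373) and did not pass when replicate 1 or 2 of DMSO, or replicate 2 or 3 of GSK, was left out (adjusted p = 0.0653 to 0.175).

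Lipoate is the swinging arm of E2, and of 9 genes of its synthesis and attachment 2 rose and 2 fell. Lias, of lipoate synthase, had 437, 534 and 566 normalised reads in GSK libraries and 338, 360 and 331 in DMSO libraries, a log2 fold change of 0.57 (adjusted p = 0.00290). Oxsm, of mitochondrial fatty acid synthesis, rose, and the lipoyl transferase gene Lipt2 and the acyl carrier gene Ndufab1 fell, with log2 fold changes of 0.54, -0.58 and -0.41. All 3 lost the call without GSK replicate 2 (adjusted p = 0.146, 0.132 and 0.0572). Oxsm also lost it without replicate 1 or 2 of DMSO or replicate 3 of GSK (0.0922 to 0.139). Its call was further lost in DESeq2 (adjusted p = 0.0724), with equal library totals (0.0749) and with no filter on low values (0.0915). Lipt2 lost its call without DMSO replicate 3 (-0.34, 0.206) and Ndufab1 without replicate 2 (0.0823) or 3 (0.0871) of DMSO.

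Biotin is the cofactor of pyruvate carboxylase. Among 9 genes of other biotin-dependent carboxylases and of biotin supply, 1 rose and 1 fell. Hlcs, the ligase that attaches biotin to carboxylases, had 87.6, 94.6 and 79.6 normalised reads in GSK libraries and 137, 168 and 188 in DMSO libraries. Its groups were far apart, with a log2 fold change of -0.90 (limma adjusted p = 0.000531). Btd, of biotinidase, which recycles biotin, had a log2 fold change of 0.82 (adjusted p = 0.000381). The genes of the other mitochondrial biotin carboxylases did not pass, and Pcca and Pccb of propionyl-CoA carboxylase had log2 fold changes of -0.31 and 0.07.

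Among the related 2-oxo acid dehydrogenase complexes, 4 of 9 genes rose and 3 fell. Branched-chain 2-oxo acid dehydrogenase is controlled by a kinase and phosphatase as well. Its kinase Bckdk had a log2 fold change of -0.53 and its phosphatase Ppm1k of 0.74 (limma adjusted p = 0.0120 and 0.00473). Without GSK replicate 1 the log2 fold change of Bckdk was -0.35 (adjusted p = 0.0251), and with the plain limma prior, neither trended nor robust, it did not pass (adjusted p = 0.0853). Ppm1k had 122, 132 and 132 normalised reads in GSK libraries and 97.7, 65.3 and 69.7 in DMSO libraries. The subunit gene Bckdha had a log2 fold change of 0.76 and Bckdhb of -0.66, the second of which lost its call without DMSO replicate 3 (-0.43, adjusted p = 0.0774).

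Of 8 genes that use acetyl-CoA or move citrate, 2 rose and 1 fell. Acss1, of the mitochondrial acetyl-CoA synthetase that makes acetyl-CoA from acetate, had 224, 195 and 218 normalised reads in GSK libraries and 935, 1000.1 and 800.1 in DMSO libraries. That was the largest change in these lists, a log2 fold change of -2.09 (limma adjusted p = 5.43e-10). Its cytosolic counterpart Acss2 had a log2 fold change of 1.04 and the citrate carrier gene Slc25a1 of 0.42. Slc25a1 did not pass when replicate 1 of DMSO, or replicate 2 or 3 of GSK, was left out (adjusted p = 0.0590 to 0.0797). Cs, of citrate synthase, did not pass (-0.10).

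Among 10 tested genes of oxaloacetate use and anaplerosis, 1 rose and 1 fell. Pck2, of the mitochondrial enzyme that turns oxaloacetate into phosphoenolpyruvate, had 347, 389 and 397 normalised reads in GSK libraries and 209, 244 and 243 in DMSO libraries (log2 fold change 0.70, limma adjusted p = 0.000629). Slc25a13, of an aspartate and glutamate carrier, had a log2 fold change of -1.11. The 11 tested transcription factor and coactivator genes known for control of PDK genes held 1 rise and 2 falls. Foxo3, a forkhead factor gene, had 772, 804 and 556 normalised reads in GSK libraries and 224, 334 and 388 in DMSO libraries, a log2 fold change of 1.19 (adjusted p = 0.000184). Ppargc1a, a coactivator gene, and Srebf1, of a lipid synthesis factor, had log2 fold changes of -1.15 and -0.39. Srebf1 did not pass with replicate 1 or 2 of DMSO, or replicate 2 of GSK, left out (adjusted p = 0.0686 to 0.131). Hif1a, which encodes the hypoxia-inducible subunit, did not pass (0.11, with an interval of -0.17 to 0.38).

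**Figure D5:**
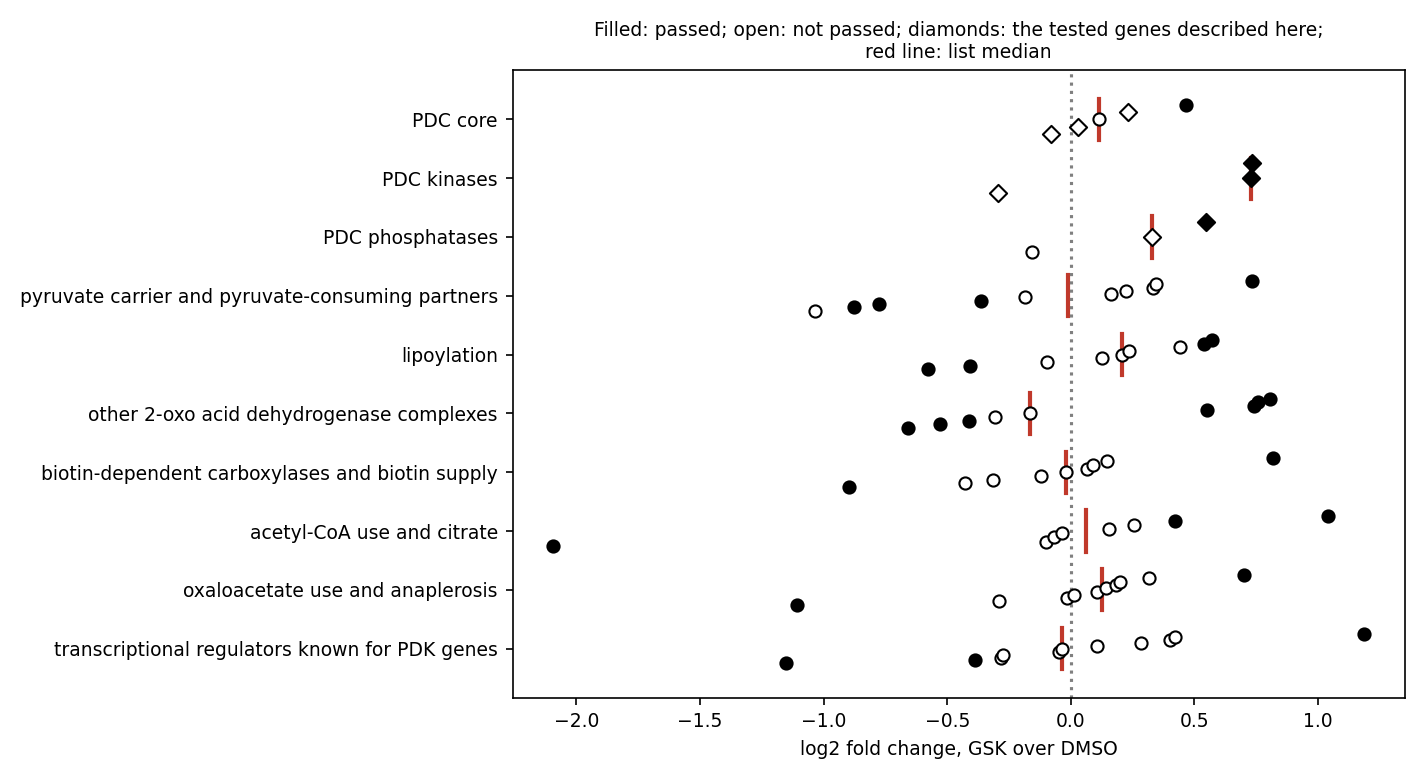
Log2 fold change of GSK over DMSO (horizontal axis) for each tested gene of 10 pathway lists; filled symbols passed, diamonds are members, and red lines are list medians. Acss1 at -2.09 is the farthest from 0, and Pdk1 and Pdk2 overlie each other at 0.73.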

How the data were processed

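Bulk RNA-seq of 3 GSK and 3 DMSO libraries was deposited as 1 table of signal values: normalised read counts, per the file headers, which the authors made from gene counts. Per the submitters' processing notes the tools included STAR and DESeq and the builds GRCm38 and mm10, without roles or versions. For the read counter, annotation and strand setting, the sources used here give nothing. The 118098 transcript rows repeat each gene's value, so 1 row was kept for each of 32285 genes. Dividing by the smallest nonzero value of its library made 100% of nonzero values whole within 0.01, so whole reads were recovered. Per 1 read the values were 0.859 to 1.14. Coordinates and exon lengths came from GENCODE vM21 (GRCm38), matched by identifier for 32235 genes.

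The test was limma 3.58.1 (R 4.3.3), trended and robust, on log2(value + 1), for genes with a mean of at least 10, with group as the only term. Fold changes on this scale understate those of low genes. The alternatives were edgeR 4.0.16 and DESeq2 1.42.0 on recovered reads, other pseudocounts, filters, scalings and priors, a stricter threshold, a replicate block and each library left out. On the recovered reads edgeR called 2529 genes higher and 3007 lower. The tests were also run on simulated counts, whose outcome is not reported here and is no support for the calls. Same-numbered libraries did not deviate together (correlations -0.0236 to 0.0529). Replicates differed by more than sampling noise. Intervals of fold changes are 95% intervals of limma; precision at low counts is limited by counting error. All 10 members are named; from each list up to 4 passing genes by smallest p were taken, not all printed, and other genes with values were added after these were seen. The members and lists were chosen with earlier results of these data known, and the promoter motifs after the values were seen. 1 list of cofactor supply genes is not reported here.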

Additional observations from a re-analysis of the deposited data

How the results depend on the processing

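The calls of Pdk1, Pdk2 and Pcx held under all 17 alternatives tried for each, with log2 fold changes of 0.66 to 0.76, 0.66 to 0.82 and -0.82 to -0.60. Pdha1 (-0.15 to -0.04) and Pdp1 (0.24 to 0.40) did not pass under any of theirs. Pdp2 also lost its call with the plain limma prior (0.55, adjusted p = 0.0591); with each library left out its log2 fold change ran from 0.43 to 0.69. Pdk3 passed with equal library totals (-0.37), and with each library left out it ran from -0.37 to -0.20. Pdhb ran from 0.14 to 0.37. Dlat turned to -0.0415 with equal library totals and ran from -0.0140 to 0.0603 with each library left out, never passing. With no filter on low values Pdk4 was tested and did not pass (0.15, adjusted p = 0.914). The cause of these shifts was not tested.

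Over all genes, 1562 were called higher at an adjusted p below 0.01, against 2563 at 0.05, a stricter threshold by construction. Leaving out each library gave 1748 to 3071 higher and 2246 to 3227 lower. Of the pathway genes other than members, 13 were called higher and 13 lower; at the 0.01 threshold these were 9 and 7, and with the plain limma prior 7 were lower. Leaving out each library gave 8 to 17 higher, the fewest without GSK replicate 2, and 9 to 17 lower. Of 406 values of 24 named pathway genes under alternatives, 42 no longer passed and none changed sign. The plain limma prior ended the calls of Bckdk, Bckdhb, Dld, Lipt2, Ndufab1, Me2, Slc25a1 and Srebf1 (adjusted p = 0.0551 to 0.0968). With no filter on low values Me2, Oxsm and Srebf1 lost theirs (limma adjusted p = 0.0518 to 0.0915). The replicate block, although the numbers are not known to pair the libraries, gave 2662 higher and 2980 lower and changed no call of a member. With this block the limma adjusted p for Pdp2 was 0.00675.

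Without length correction the Pdk1 share was higher by 5.92 percentage points in GSK libraries and that of Pdk3 lower (-15.7 points), against 2.56 and -13.0 per exon length, and the kinase to phosphatase ratio differed by -0.524, against -1.13. Leaving out each library moved these differences within 2.28 to 2.82, -14.2 to -12.1 and -1.33 to -0.864; that of Pdk2 (10.4) stayed within 9.44 to 11.4 and that of Pdk4 (0.0996) within 0.0284 to 0.212. The median length of coding transcripts, chosen after seeing the data, gave a ratio difference of -1.03. Depth limits Pdk4 most.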
